A study of Mus musculus with 24 samples.

Results

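Livers of male BALB/c mice fed 1.0% phloridzin were compared with livers of mice fed 0.5%, the 2 highest doses of the study, to see what doubling the dose changed in the liver transcriptome. The comparison used 11 of the 24 arrays, 5 labelled 1.0% (replicates 2 to 6) and 6 labelled 0.5% (replicates 1 to 6), and no array of control liver entered it. The mice, labelled 6 weeks old, were given the purified AIN-93G diet with phloridzin for 14 days, and were kept 3 to a cage, 6 to a diet; the other diets held 0.1% phloridzin or none. Both groups compared were therefore treated, and by their labels they differed in the amount of phloridzin in the same diet. The labels used here name no cage for an array, so cage cannot be told apart from dose. The strain was normal and carried no modified allele.

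The arrays had been chosen and averaged by how alike they were, so that likeness is a description and not a result. One array, 1.0% replicate 1, was left out because its log2 signals differed from 0.1% replicates 1, 3 and 6 with an SD of only 0.0519 to 0.0538 over 1463 well measured genes, against 0.512 to 0.525 from the other 1.0% arrays. Of the 11 arrays kept, 5 pairs were repeat hybridisations (SD 0.047 to 0.0563) and 8 further pairs were alike enough (0.108 to 0.137) to be averaged as 1 RNA. This left 2 RNA samples for each dose. At 0.5% these were the mean of replicates 1, 2, 3 and 6, called the 4-array 0.5% RNA below, and the mean of replicates 4 and 5, the 2-array 0.5% RNA. At 1.0% they were the mean of replicates 2, 3, 5 and 6, the 4-array 1.0% RNA, and replicate 4 alone, the 1-array 1.0% RNA. A second measure, over the 200 most variable genes, put the 1.0% replicates 2 and 3 beside 5 and 6 at a distance ratio of 0.943 and the 0.5% replicates 1 and 6 beside 2 and 3 at 1.32. The next lowest ratio, 1.46, was between the 2-array 0.5% RNA and 1.0% replicates 2 and 3, so the join within 0.5% was the less clear one. Its ratio was also above the 1.2 set for this measure, and that of the join within 1.0% was below. Whether each RNA sample came from a single mouse is not stated, and p-values here measure spread between RNA samples. That spread was pooled over 11 RNA samples of all diets, 4 of control, 3 at 0.1%, 2 at 0.5% and 2 at 1.0%.

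Phloridzin is a glucoside found in apple that blocks the sodium-glucose cotransporters SGLT1 and SGLT2, which take up glucose in the gut and recover it in the kidney. Liver does not rely on these carriers, and it meets the compound, its gut breakdown product phloretin and any change in glucose supply through the blood. The liver is also the main site of phase II conjugation, in which glutathione transferases and glucuronosyltransferases attach polar groups to small molecules.

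The promoters of 3 mu class glutathione transferase genes and of Clec2d, a C-type lectin gene, are printed here because the results below open with them. Gstm6, Clec2d and Gstm2 were among the 12 genes with the lowest p, and Gstm1 is shown as their mu class neighbour. The Gstm genes lie together on chromosome 3. Each line gives the 250 bases before the first listed RefSeq start of the gene in assembly GRCm38.p6, 5′ to 3′ on the gene's strand. Capitals mark the letters CCAAT on either strand in the Gstm promoters and AGGTCA, a motif bound by nuclear receptors, on either strand in Clec2d.
Gstm6, chr3:107953467-107953716, minus strand: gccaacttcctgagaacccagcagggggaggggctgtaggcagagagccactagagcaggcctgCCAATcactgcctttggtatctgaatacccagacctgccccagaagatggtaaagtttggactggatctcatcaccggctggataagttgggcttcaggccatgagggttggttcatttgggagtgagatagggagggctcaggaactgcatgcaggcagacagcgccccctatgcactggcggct
Gstm2, chr3:107986421-107986670, minus strand: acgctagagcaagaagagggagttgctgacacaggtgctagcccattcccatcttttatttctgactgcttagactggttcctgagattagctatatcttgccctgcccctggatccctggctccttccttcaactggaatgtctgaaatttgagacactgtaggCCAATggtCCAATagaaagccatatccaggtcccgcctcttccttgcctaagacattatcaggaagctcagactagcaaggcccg
Gstm1, chr3:108017974-108018223, minus strand: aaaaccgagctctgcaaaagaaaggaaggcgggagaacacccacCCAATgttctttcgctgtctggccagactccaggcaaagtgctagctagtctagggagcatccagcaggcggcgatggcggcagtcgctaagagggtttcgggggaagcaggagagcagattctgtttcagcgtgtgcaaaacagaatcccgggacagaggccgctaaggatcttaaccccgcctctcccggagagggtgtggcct
Clec2d, chr6:129180365-129180614, plus strand: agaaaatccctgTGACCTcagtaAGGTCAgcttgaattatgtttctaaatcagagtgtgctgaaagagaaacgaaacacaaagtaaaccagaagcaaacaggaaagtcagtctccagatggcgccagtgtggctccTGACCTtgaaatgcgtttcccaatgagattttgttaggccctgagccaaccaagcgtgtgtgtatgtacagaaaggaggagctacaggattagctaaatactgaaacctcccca
CCAAT occurred in 33.8% and AGGTCA in 14.0% of 32851 promoters of this length, and the Clec2d promoter held AGGTCA 3 times. None of these 4 promoters held CACGTG, the E-box of clock factors (6.02% of all promoters), or TGANNNNGC, the core of the antioxidant response element (35.2%). These are letter matches only.

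No gene passed an adjusted p of 0.05 between the doses (limma, Benjamini-Hochberg over 13118 genes; 0 called, 0%). The smallest adjusted p was 0.275, shared by Gstm6 and Clec2d. At an unadjusted p under 0.05 there were 552 genes (4.21%), of which 211 (1.61%) were higher and 341 (2.6%) lower at 1.0%. Whatever their p, 54.6% of all genes were lower at 1.0%. The counts of each gene list below stand beside these shares. Both RNA samples of a dose lay on the same side of both of the other dose for 4711 genes (35.9%), 1980 (15.1%) higher and 2731 (20.8%) lower at 1.0%. With each array centred on its median in place of quantile normalization, 19% of the genes with p under 0.05 were higher at 1.0%, and 17.9% with no scaling, against 38.2% here. The median difference of all genes moved from -0.03 to -0.10 and -0.16 under those scalings, so signs of small differences are relative to the scaling used.

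RNA samples of 1 dose differed from each other about as much as RNA samples of different doses did. Taking single RNA samples in pairs, the median gap per gene on the log2 scale was 0.218 between the 0.5% RNA samples and 0.221 between the 1.0% RNA samples, and 0.216 to 0.249 over the 4 pairs across the doses. A gap over 2-fold was seen for 367 and 405 genes within the doses and for 306 to 570 across them. These pairs share samples, so the values are a description. The closest arrays of different dose, 0.5% replicates 4 and 5 against 1.0% replicate 4, differed with an SD of 0.249, inside the 0.236 to 0.265 of the 2 RNA samples of 1.0%. The arrays of the 2 RNA samples of 0.5% stood 0.326 to 0.346 apart. The 3′ minus 5′ log2 signal of Gapdh, a sign of RNA integrity, was -0.18 and -0.18 in the 0.5% RNA samples and -0.31 and -0.35 at 1.0%, with controls at -0.37 to -0.28, so the 0.5% values lay outside the control range. The same measure of Actb, 1.49 and 1.78 at 0.5% and 1.21 and 1.51 at 1.0%, overlapped between the doses. The part of RNA integrity in the results was not tested.

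**Figure D1:**
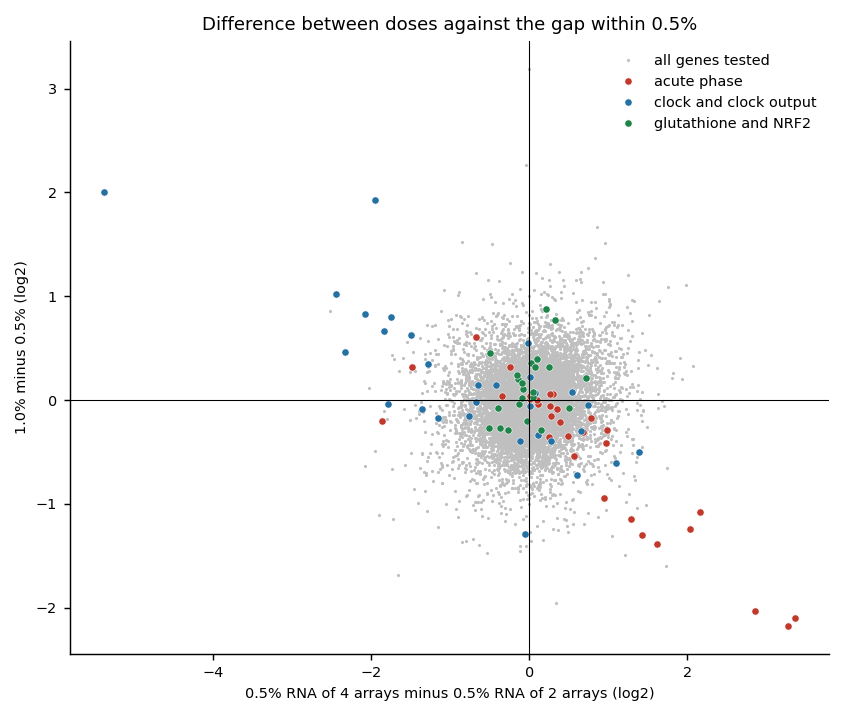
Each grey point is a gene, placed by its log2 gap between the 4-array and the 2-array 0.5% RNA (horizontal) and its log2 difference between 1.0% and 0.5% (vertical), with acute phase, clock and glutathione genes coloured. Orm2, Lcn2 and Saa2 lie at the lower right and Dbp at the upper left, where the gap within 0.5% is larger than the dose difference, and Gstm6 and Gstm2 lie high near the middle. Both axes use the same 0.5% samples, so a slope here is no finding.

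Gstm6 had the lowest p of all genes, and Gstm2 was the fourth by p among those higher at 1.0%, after Clec2d and Sirt4. Of 23 measured genes of glutathione conjugation and the NRF2 response, 15 were higher and 8 lower at 1.0%. At p under 0.05, 6 were higher and 1 lower, beside 1.61% and 2.6% of all genes. The mean level of these genes was 9.164 and 9.177 at 0.5% and 9.365 and 9.237 at 1.0%, with controls at 9.272 to 9.3. The 4-array 1.0% RNA was above the control range and the 1-array 1.0% RNA below it, as were both 0.5% RNA samples. Their median difference was 0.10 with quantile normalization, 0.05 with median centring and -0.01 with no scaling, beside -0.03, -0.10 and -0.16 for all genes. Without the 4-array 1.0% RNA it was 0.02, with 4 members higher at p under 0.05; without the 4-array 0.5% RNA 3 were higher and 0 lower, and without the 1-array 1.0% RNA it was 0.19. Gstm6, a mu class transferase, read 9.09 and 8.87 in the 4-array and 2-array 0.5% RNA and 9.97 and 9.75 in the 4-array and 1-array 1.0% RNA. All 5 arrays at 1.0%, from 9.75 to 10.01, were above all 6 at 0.5%, from 8.87 to 9.15, and the control range, 9.42 to 9.58, lay between them. The difference was 0.88 ± 0.14 (log2 ± SE), 1.84-fold (limma adjusted p = 0.275).

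Gstm2 had the same layout, with 8.36 and 8.04 at 0.5% and 9.09 and 8.86 at 1.0%. The 1.0% values overlapped the control range of 8.85 to 9.07, and those at 0.5% were below it. Its difference was 0.77 ± 0.15 (adjusted p = 0.494). Gstm1, the most abundant mu class enzyme of mouse liver, read 11.57 and 11.55 at 0.5% and 11.80 and 12.05 at 1.0%. Controls of Gstm1 ran from 11.89 to 12.11, above both 0.5% RNA samples and the 4-array 1.0% RNA. The Gstm1 difference was 0.36 ± 0.11 (limma adjusted p = 0.989). Its 3 other probe sets were also higher at 1.0%, by 0.46, 0.51 and 0.70. Mu class genes are similar in sequence, and cross-hybridisation between their probes was not tested. Gclc, the catalytic subunit of the enzyme that begins glutathione synthesis, pointed the other way, at 11.07 and 10.92 against 10.65 and 10.75. Its control range was 10.71 to 10.92, so the 4-array 0.5% RNA was above it and the 4-array 1.0% RNA below.

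**Figure D2:**
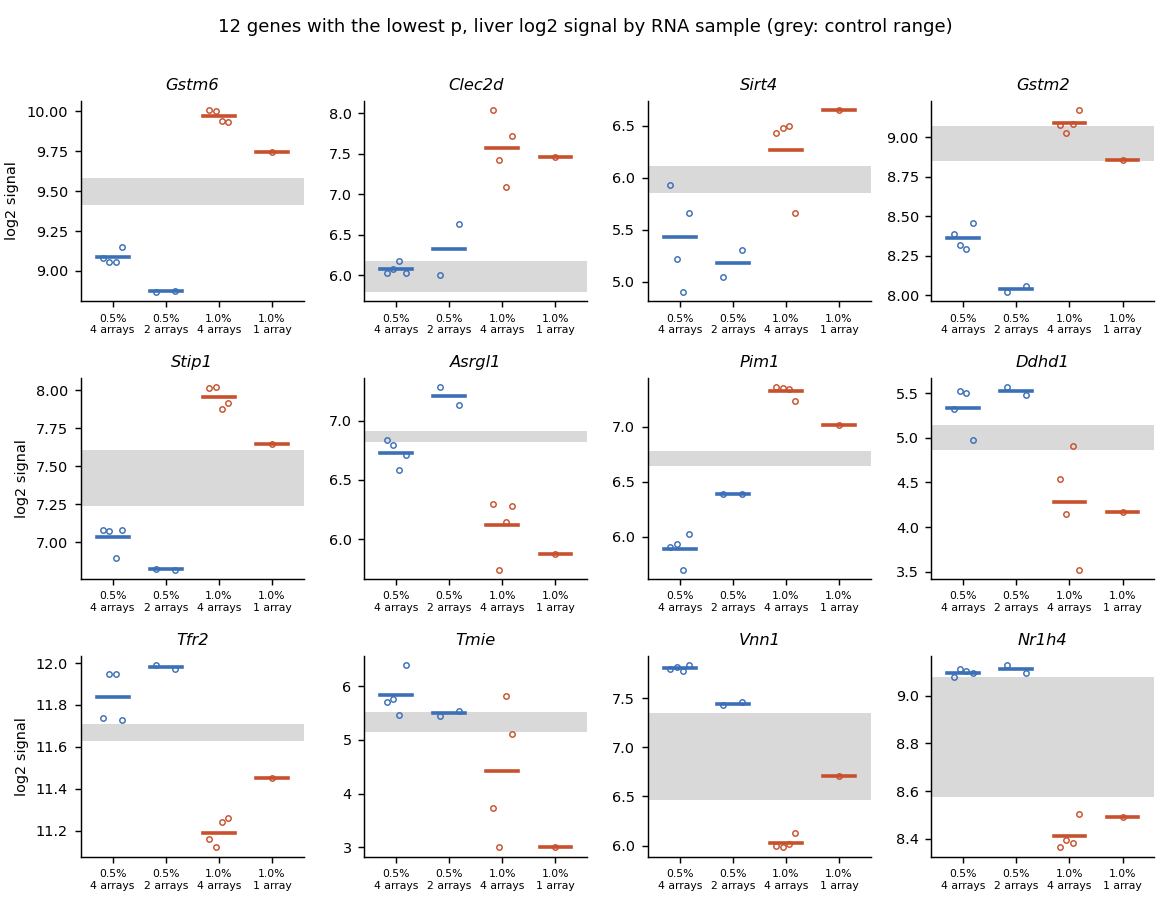
Log2 signal (vertical) of the 12 genes with the lowest p in the 4 RNA samples; circles are arrays, thick lines the mean of each RNA sample (0.5% blue, 1.0% red) and the grey band the range of the 4 control RNA samples. In every panel both 1.0% lines are on one side of both 0.5% lines; Gstm6 at 0.5% is below the control band and at 1.0% above it, and Clec2d at 1.0% (7.57 and 7.46) is above the band.

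Clec2d, the lectin-like ligand of an inhibitory natural killer cell receptor, was at 6.08 and 6.32 at 0.5% and at 7.57 and 7.46 at 1.0%. The control range was 5.79 to 6.18, and the 0.1% RNA samples reached 6.91. The 1.0% RNA samples were thus the high ones, by 1.32 ± 0.22 or 2.49-fold over 0.5% (adjusted p = 0.275). Sirt4, a mitochondrial sirtuin, was at 5.43 and 5.18 against 6.27 and 6.66, with controls at 5.86 to 6.11 between the doses. Arrays of the 4-array 1.0% RNA ranged down to 5.66, below the highest 0.5% array at 5.93. Its difference was 1.16 ± 0.21 (adjusted p = 0.426). Pim1, a kinase induced by cytokines through STAT factors, read 5.89 and 6.39 against 7.32 and 7.01, 2.03-fold higher, with controls at 6.65 to 6.78 between them. Stip1, the co-chaperone that links HSP70 to HSP90, read 7.03 and 6.82 against 7.96 and 7.65, a difference of 0.88 ± 0.18 (adjusted p = 0.494). With only repeat hybridisations averaged, which counts 3 samples a dose, 6 genes were called: Gstm6 and Clec2d (adjusted p = 0.0051 each), Stip1 and Pim1 (0.0223 each), Gstm2 (0.0252) and Vnn1 (0.0348). That run counts parts of what was averaged here as 1 RNA as separate samples, which can make p too small. Its calls are therefore no further support for these genes.

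Of the 12 genes with the lowest p, 6 were lower at 1.0%: Asrgl1, Ddhd1, Tfr2, Tmie, Vnn1 and Nr1h4. Vnn1, a pantetheinase and a target of the fatty acid receptor PPARA, was at 7.81 and 7.44 at 0.5% and at 6.03 and 6.71 at 1.0%. The 0.5% RNA samples were above the control range of 6.46 to 7.35 and the 4-array 1.0% RNA below it. The difference was -1.26 ± 0.30, 2.39-fold lower (adjusted p = 0.989), and a second probe set gave -1.27. Nr1h4, the bile acid receptor FXR, read 9.10 and 9.11 against 8.41 and 8.49. All 5 arrays at 1.0% lay below the control range of 8.58 to 9.08, and the gaps within each dose were under 0.1. The difference was -0.66 ± 0.16 (adjusted p = 0.989).

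Tfr2, the transferrin receptor of hepatocytes that senses iron, was at 11.84 and 11.98 against 11.19 and 11.45, with controls between at 11.63 to 11.71. Its other probe set differed by only -0.14. Asrgl1, an asparaginase that also cleaves isoaspartyl peptides, read 6.73 and 7.20 against 6.12 and 5.87, and its 3 other probe sets were lower at 1.0% too, by 0.10 to 0.57. Ddhd1, a phospholipase that acts on phosphatidic acid, read 5.33 and 5.52 against 4.28 and 4.17, 2.30-fold lower, with controls at 4.86 to 5.14. Tmie read 5.83 and 5.49 against 4.42 and the floor of 3.00, but its 2 other probe sets were higher at 1.0%, by 0.66 and 0.88.

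By size, 414 genes had p under 0.05, no overlap and a mean log2 signal above 5 in the higher dose, 153 higher and 261 lower at 1.0%, and the 12 largest of each direction are given here. Moxd1, a monooxygenase-like gene that is male-biased in mouse liver, was at the floor of 3.00 in both 0.5% RNA samples and at 5.52 and 6.87 at 1.0%. Control livers ran from 3.00 to 6.63, so they covered nearly all these values. On the floored scale it was at least 9.15-fold higher at 1.0%. Slc30a3, a zinc transporter, read 3.18 and 3.22 against 4.62 and 6.30. Its 4-array 1.0% RNA was uneven, with replicates 2 and 3 at 6.05 and 5.99 and replicates 5 and 6 at 3.44 and 3.00, although these arrays had been averaged as 1 RNA.

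Junb, an immediate early AP-1 subunit, read 4.05 and 3.96 against 5.56 and 4.90, with controls at 4.60 to 5.26 above the 0.5% RNA samples. Nab2, a corepressor of EGR factors, read 3.78 and 4.26 against 5.64 and 5.41, and Rnase2a, an eosinophil-type ribonuclease, 6.88 and 7.27 against 8.43 and 8.0. Kcnk1, a potassium channel, was higher by 1.52 ± 0.54. The other probe set of Kcnk1 was higher at 1.0% too, by 0.86. Nr1d1, Clec2d and Sirt4 were also in this set. Like Moxd1, Slc30a3, Junb, Nab2 and Rnase2a, they had no other probe set to compare. Rundc3a, Dok7 and Camta1 completed it, with differences of 1.67, 1.36 and 1.16, and each of their other probe sets was lower at 1.0%, by 0.07 to 0.34.

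On the lower side Nnmt, which methylates nicotinamide, read 6.54 and 5.33 against 4.88 and 4.00, with controls at 4.22 to 5.40. The 4-array 0.5% RNA was above that range and the 1-array 1.0% RNA below it. Alas1, the rate-limiting enzyme of heme synthesis in liver, read 9.26 and 9.31 against 8.68 and 7.30, and a second probe set gave -1.49, but controls ran from 7.61 to 9.61. E2f8, an atypical E2F repressor linked to polyploidy, read 6.21 and 5.51 against 5.46 and 3.87, and the 1-array 1.0% RNA was the low one. Btbd2 read 4.41 and 6.07 against 3.93 and 3.17, Wipf3 was lower by 1.47 ± 0.68 and 1700036A12Rik by 1.34 ± 0.54. Tmco4 was lower by 1.21 ± 0.45 in its brighter probe set and differed by 0.03 in the other. Tmie, Vnn1, Ddhd1, Fgl1 and Mt1 made up the rest.

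Acute phase genes, which hepatocytes switch on through interleukin-6 and STAT3 in inflammation, were mostly lower at 1.0%, and the 4-array 0.5% RNA was high in them. Of 31 measured members 23 were lower and 8 higher, 8 lower at p under 0.05, with a median of -0.21 (-0.31 with median centring and -0.37 with no scaling). Among all genes 54.6% were lower at 1.0%, and 2.6% were lower at p under 0.05. Orm2, an orosomucoid, was at 10.64 in the 4-array 0.5% RNA and 7.38 in the 2-array 0.5% RNA, and at 7.60 and 6.07 at 1.0%. The doses overlapped, and the first value was the farthest above the control range of 5.95 to 6.14. Its difference was -2.17 ± 0.72 (adjusted p = 1). Lcn2, an iron-binding lipocalin, read 10.44 and 7.08 against 7.50 and 5.82, with controls at 6.33 to 6.84.

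Saa2, a serum amyloid A protein, read 13 and 10.15 against 10.96 and 8.13, over controls of 7.53 to 8.53. In both doses 1 RNA sample was high and 1 lower, by 2.85 at 0.5% and 2.83 at 1.0%, more than the dose difference of -2.03. Saa1 read 13.46 and 12.17 against 12.44 and 10.90. Fgl1, a fibrinogen-like protein, read 12.05 and 10.43 against 10.28 and 9.42 and did not overlap between doses (adjusted p = 1). Itih3 and Itih4, inter-alpha-trypsin inhibitor chains, were lower by 0.53 ± 0.16 and 0.36 ± 0.11. Mt1, a metallothionein that binds zinc, read 8.13 and 6.71 against 6.23 and 6.02, with controls at 6.00 to 6.35 at the level of 1.0%.

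Leaving out the 4-array 0.5% RNA took the acute phase median to -0.02 and its members with p under 0.05 from 8 to 0. Leaving out the 2-array 0.5% RNA gave 16 lower members and a median of -0.48, and Orm2 (-3.81, adjusted p = 0.0194) and Lcn2 (-3.78, adjusted p = 0.0318) were then called, with the lone 0.5% sample taken to vary like the other groups. Without the 4-array 1.0% RNA 11 members had p under 0.05 and were lower, and without the 1-array 1.0% RNA 3. The mean level of the list was 10.56 and 9.88 at 0.5%, 9.93 and 9.55 at 1.0% and 9.5 to 9.67 in controls. Neutrophil markers were not high in that RNA sample: their mean level was 4.41 in the 4-array 0.5% RNA, 5.13 in the 2-array 0.5% RNA, and 4.49 and 4.37 at 1.0%.

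**Figure D3:**
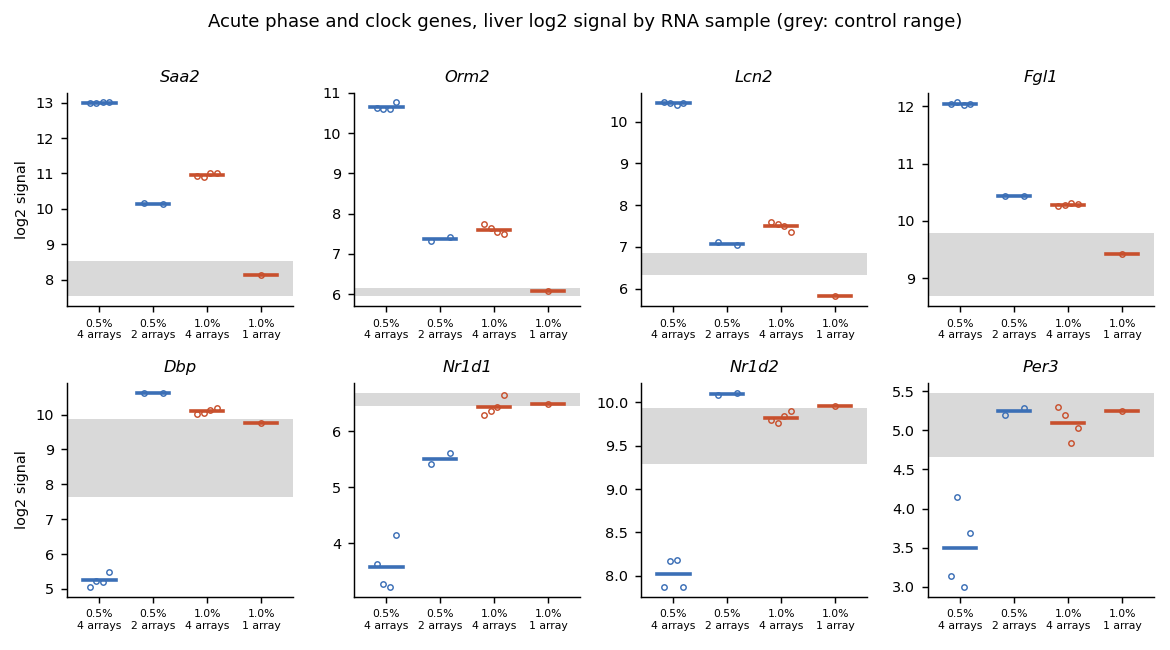
Log2 signal (vertical) of 4 acute phase genes (upper row) and 4 clock genes (lower row) in the 4 RNA samples; circles are arrays, thick lines RNA sample means and the grey band the control range. The 4-array 0.5% RNA is the highest for Saa2 (13), Orm2, Lcn2 and Fgl1 and the lowest for Dbp (5.24), Nr1d1, Nr1d2 and Per3.

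The same 4-array 0.5% RNA stood apart in the circadian clock, the feedback loop of CLOCK and BMAL1 with PER, CRY and REV-ERB that times liver transcription. Dbp, a clock-driven transcription factor with a steep daily swing, read 5.24 there and 10.62 in the 2-array 0.5% RNA, against 10.10 and 9.76 at 1.0%. The gap within 0.5% was 5.37 on the log2 scale, larger than the dose difference of 2.00 ± 1.24 (adjusted p = 1), and controls ran from 7.63 to 9.87. Nr1d1, which encodes the repressor REV-ERB alpha, read 3.56 and 5.51 against 6.44 and 6.49. Both 0.5% RNA samples were below the control range of 6.46 to 6.69, the 4-array RNA by far the most, and the difference was 1.93 ± 0.49 (adjusted p = 0.989). Its partner Nr1d2 read 8.02 and 10.10 against 9.83 and 9.96, and Per3 and Per2, period proteins, had the same single low value, 3.50 and 4.98.

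Arntl, which encodes BMAL1 and is repressed by REV-ERB, was at 7.06 and 6.78 against 6.57 and 6.48, lower by 0.40 ± 0.34 at 1.0%, with 1 other probe set pointing the other way. Of 16 core clock genes 8 were higher and 8 lower, with Nr1d1 alone at p under 0.05, and of 14 clock output genes 7 were higher and 7 lower. Without the 4-array 0.5% RNA the differences of Dbp, Nr1d2, Per3 and Per2 changed sign, to -0.69, -0.21, -0.07 and -0.12. Without the 2-array 0.5% RNA Nr1d1 was called (2.90, adjusted p = 0.0399). The labels used here give no hour at which the livers were taken, so time of day cannot be told apart from these differences.

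Glucocorticoid-responsive genes were split. Of 17 measured, 4 were higher and 2 lower at p under 0.05, with a median of -0.05 that ran from -0.23 without the 1-array 1.0% RNA to 0.21 without the 4-array 1.0% RNA. Tsc22d3 (GILZ), a direct receptor target, read 7.10 and 7.11 against 7.63 and 7.68, all below the control range of 7.75 to 8.14. Dusp1, a MAP kinase phosphatase, read 9.22 and 9.86 against 10.44 and 10.21, with controls at 10.27 to 10.78, so both 0.5% values were the farthest below it. Tat, which degrades tyrosine, read 10.66 and 10.71 against 11.01 and 11.34, a difference of 0.49 ± 0.15 (adjusted p = 0.989). Mt1 and Lcn2, members of this list as well as of the acute phase list, were the lower ones.

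Of 22 immediate early genes, Junb and Dusp1 were higher and Klf4 and Jun lower at p under 0.05, 11 in each direction in all. Klf4 read 4.43 and 4.58 against 3.58 and 3.67. Jun, the AP-1 partner of JUNB, read 7.84 and 7.85 against 7.11 and 7.50, within or close to the control range of 7.06 to 7.74.

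Of 25 genes of the unfolded protein and ATF4 responses, which raise chaperones of the endoplasmic reticulum and amino acid supply, 18 were higher and 7 lower, 4 higher and 0 lower at p under 0.05, with a median of 0.20 (0.09 with median centring and 0.04 with no scaling). Among all genes 1.61% were higher and 2.6% lower at that p. The list's mean level was 8.4 and 8.397 at 0.5% and 8.704 and 8.516 at 1.0%, with controls at 8.448 to 8.705. Both 1.0% RNA samples were thus within the control range, and both 0.5% RNA samples were below it. Manf, a secreted chaperone, read 10.51 and 10.83 against 11.49 and 11.11, with controls at 10.51 to 11.12. Hyou1, an HSP70-like chaperone of the reticulum, read 8.58 and 8.19 against 9.24 and 8.96, and both 1.0% RNA samples exceeded the highest control, 8.69. Creld2 read 8.58 and 9.48 against 10.58 and 9.51, and Sdf2l1 5.91 and 5.51 against 7.09 and 5.88. For Creld2 and Sdf2l1 the 4-array 1.0% RNA was high and the 1-array 1.0% RNA was near the 0.5% values. Without the 4-array 1.0% RNA, 1 of the 25 was higher at p under 0.05 and the median was 0.12; without the 2-array 0.5% RNA it was 0.06, and without the 1-array 1.0% RNA 0.33.

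Cytosolic heat shock genes had 14 of 21 members higher, with Stip1 alone at p under 0.05, and a median of 0.17 (0.06 with median centring and 0.00 with no scaling). That median was 0.05 without the 4-array 0.5% RNA, 0.00 without the 2-array 0.5% RNA and -0.02 without the 4-array 1.0% RNA. Hsp90aa1, the inducible HSP90, read 11.09 and 11.02 against 11.97 and 11.48, all above the control range of 10.30 to 10.99. Of its 3 other probe sets the brighter 2 were higher at 1.0%, by 0.98 and 1.19, and the dim one differed by -0.04. Hspa1b, the inducible HSP70, pointed the other way at 9.65 and 9.04 against 8.15 and 8.79, and controls ran from 9.29 to 11.97.

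Fatty acid oxidation genes under PPARA, which supply energy and ketone bodies in fasting, were lower for 23 of 27 members, beside 54.6% of all genes. At p under 0.05, 2 of them were lower, beside 2.6% of all genes. The list median was -0.10 (-0.21 with median centring and -0.27 with no scaling). The median was -0.03 without the 4-array 1.0% RNA, -0.04 without the 2-array 0.5% RNA, -0.26 without the 4-array 0.5% RNA and -0.22 without the 1-array 1.0% RNA. Those at p under 0.05 were Vnn1 and Slc25a20, the mitochondrial carnitine carrier, which read 10.51 and 10.76 against 10.19 and 10.38. The other Slc25a20 probe set differed by only -0.08. Acot1, a cytosolic thioesterase induced by PPARA ligands, read 6.15 and 6.36 against 5.16 and 5.66, a difference of -0.85 ± 0.41 that did not pass. Both 1.0% RNA samples, at mean levels of 8.75 and 8.92, were below the control range of 8.99 to 9.12 for the list, and both 0.5% RNA samples, at 9.02 and 9.12, were within or at its edge.

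Cholesterol synthesis genes, driven by SREBP2 when cell sterol is low, were higher for 17 of 20 members, with a median of 0.16 (0.07 with median centring and 0.01 with no scaling). Stard4, a sterol transfer protein, was the one at p under 0.05, at 8.05 and 8.85 against 9.31 and 8.92. Insig1 (0.45 ± 0.24) and Msmo1 (0.50 ± 0.29) did not pass. Without the 2-array 0.5% RNA the list's median was -0.02, and the control livers spanned 8.02 to 8.62 in mean level, wider than the 8.17 to 8.57 of the 4 RNA samples. Of 24 genes of fatty acid synthesis 0 had p under 0.05. Fasn, fatty acid synthase, read 9.87 and 9.29 against 9.81 and 9.91.

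In bile acid metabolism Nr1h4 was lower and Abcg8, the subunit of a sterol exporter, higher at p under 0.05, with 12 of 24 genes in each direction. Abcg8 read 8.0 and 7.89 against 8.36 and 8.38, at the control range of 8.31 to 8.53 for 1.0% and below it for 0.5%. Cyp7a1, the hydroxylase that starts the classic route from cholesterol to bile acids, read 8.07 and 7.52 against 7.14 and 6.06. Both 0.5% RNA samples and the 4-array 1.0% RNA were above the control range of 5.42 to 6.06, the 1-array 1.0% RNA was at its upper end, and the difference of -1.20 ± 0.57 did not pass.

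In glucose metabolism 1 gene of the lists had p under 0.05, Gyg, which encodes the glycogenin that primes glycogen. It read 7.11 and 7.24 against 6.54 and 6.66, a difference of -0.57 ± 0.23 (limma adjusted p = 1), over controls of 6.71 to 7.37, and 10 of 15 glycogen genes were lower. The other Gyg probe set differed by only -0.13. Of 17 gluconeogenesis genes, 14 of glycolysis and fructose entry, 10 glucose carriers and 20 of insulin and IGF signalling, 0 had p under 0.05, and with 2 RNA samples a dose this does not show that they were equal. Pck1, which makes phosphoenolpyruvate for gluconeogenesis, read 10.71 and 11.21 against 11.15 and 11.67, with controls at 11.11 to 11.66 and a difference of 0.45 ± 0.22. G6pc, the glucose 6-phosphatase that releases glucose, read 11.14 and 10.62 against 10.20 and 11.23, and the gap of 1.03 within 1.0% was larger than the dose difference of -0.16. Igfbp1, an IGF-binding protein that insulin represses, read 9.0 and 7.52 against 6.97 and 7.52, with controls at 8.16 to 9.52. Only the 4-array 0.5% RNA reached the control level.

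The carriers that phloridzin blocks were dim in liver. Slc5a1 (SGLT1) read 3.68 and 4.16 against 3.54 and 3.21, close to the floor of 3.00, and Slc5a2 (SGLT2) 4.99 and 4.85 against 5.06 and 4.37. Slc2a2 (GLUT2), the main glucose carrier of hepatocytes, read 11.01 and 11.48 against 11.38 and 11.38, a difference of 0.14 ± 0.17.

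In amino acid metabolism 18 of 26 genes were higher and 3 had p under 0.05, all higher, beside 1.61% of all genes. Arg1, the arginase of the urea cycle, read 12.16 and 12.38 against 12.65 and 12.71, with 1.0% above the control range of 12.29 to 12.42. Cbs, of transsulfuration, read 10.18 and 9.63 against 10.29 and 10.31, where the 2-array 0.5% RNA was the low one. Tat was the other gene.

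Iron and heme genes were split, 2 higher and 4 lower at p under 0.05 of 22, and 1 higher and 2 lower without the 4-array 0.5% or the 4-array 1.0% RNA. Alas2, the erythroid form of the first heme enzyme, read 9.11 and 8.75 against 9.5 and 9.43, with controls at 9.45 to 9.82. Cpox, a later step of the pathway, read 9.97 and 9.93 against 8.77 and 9.78, and its other probe set was higher at 1.0% by 0.35. Alas1 was lower and Alas2 higher at 1.0%, but neither form of the first enzyme was called, and controls of Alas1 ran from 7.61 to 9.61.

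Genes with a sex difference in liver, which pulsatile growth hormone maintains, were among those at small p although all mice were male. Of 17 male-biased genes 14 were higher at 1.0%, 3 of them at p under 0.05, beside 1.61% of all genes. Their median was 0.12 (0.11 with median centring and 0.05 with no scaling). Without the 4-array 1.0% RNA 1 member had p under 0.05, and without the 1-array 1.0% RNA the median was 0.20. Besides Moxd1 these were C6, a complement component, at 10.60 and 10.43 against 11.03 and 10.95, and Serpina12 (vaspin) at 9.57 and 9.90 against 10.17 and 10.21. The list's mean level was 10.34 and 10.38 at 0.5% and 10.65 and 10.70 at 1.0%, with controls at 10.39 to 10.68 covering nearly the whole span.

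Of 13 female-biased genes 6 were higher and 7 lower at 1.0%, with a median of -0.18. That median was 0.01 without the 4-array 0.5% RNA and -0.32 without the 2-array 0.5% RNA. At p under 0.05, 3 were lower and 1 higher, beside 2.6% and 1.61% of all genes. Cyp2b9 read 4.76 and 4.89 against 3.16 and 3.68, Cyp3a44 5.38 and 6.29 against 4.30 and 5.12, and Hao2, a peroxisomal hydroxyacid oxidase, 4.77 and 4.86 against 3.48 and 3.84. Cyp17a1, a steroid hydroxylase, was the one higher at that p, at 3.96 and 3.00 against 4.77 and 5.22. These signals were dim, and Cyp2b9 and Hao2 were within 2 log2 units of the floor in all 4 RNA samples. Of 33 cytochrome P450 genes of families 1 to 4, 18 were higher and 15 lower, with 3 lower and 0 higher at p under 0.05, Cyp2b9 and Cyp3a44 among them.

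**Figure D4:**
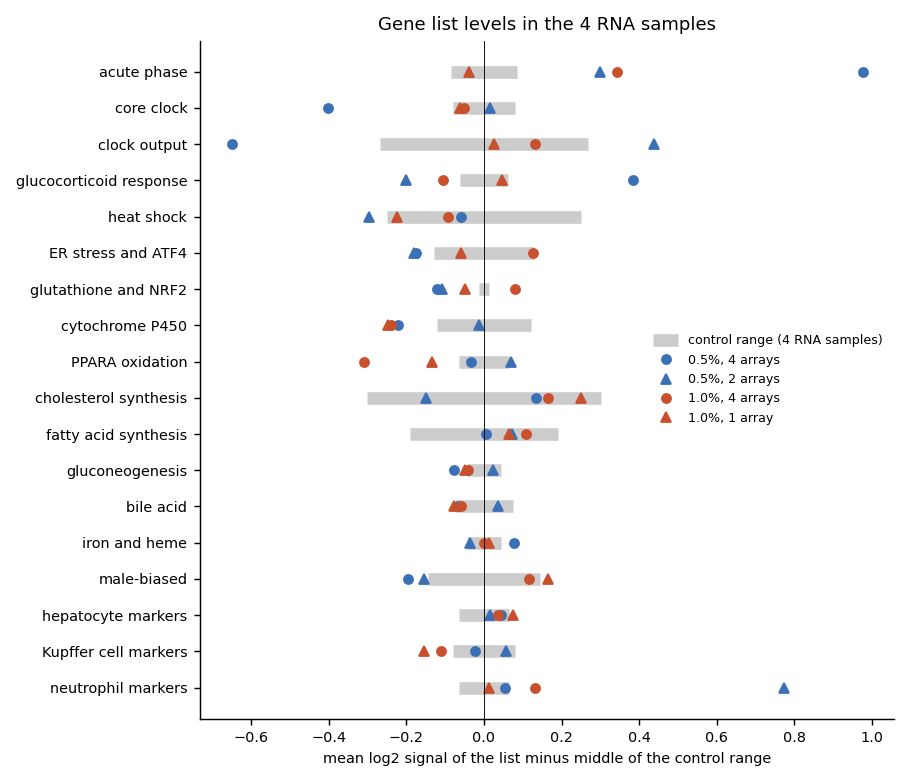
Mean log2 signal of 18 gene lists in the 4 RNA samples, each minus the middle of the control range for that list (horizontal); circles and triangles are RNA samples (0.5% blue, 1.0% red) and grey bars span the 4 control RNA samples. The 4-array 0.5% RNA is the sample farthest from the control range for the acute phase (10.56) and both clock lists, and the 2-array 0.5% RNA for the neutrophil markers (5.13).

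The tissue matched its label in all 4 RNA samples, with hepatocyte markers at a mean log2 signal of 13.32 to 13.38, against 13.24 to 13.37 in controls. In whole liver, fewer cells of a type and less RNA per cell cannot be told apart. Of 11 Kupffer cell markers 8 were lower at 1.0%, where 54.6% of all genes were lower. Cd5l, a scavenger protein of these macrophages, read 8.93 and 9.21 against 8.57 and 8.76. Mean levels of the Kupffer cell markers were 7.60 and 7.68 at 0.5% and 7.52 and 7.47 at 1.0%, with controls at 7.55 to 7.71. Ccr2, a monocyte chemokine receptor, read 4.57 and 4.28 against 3.48 and 3.52, and Sox9, a bile duct factor, 4.62 and 3.75 against 3.03 and 3.08. Both were near the floor at 1.0%. The 2 other probe sets of Ccr2 were split, at -0.24 and 0.18. Bile duct markers as a list were split, with 2 of 4 measured members higher and 2 lower and a median of -0.03. Of 7 neutrophil markers 6 were lower and 0 had p under 0.05. S100a8 and S100a9, calprotectin subunits, were high in the 2-array 0.5% RNA alone, at 7.29 and 6.71, against 5.96 and 5.99 in the 4-array 0.5% RNA. Markers of sinusoidal endothelium (10 measured) and stellate cells (11) had 0 members at p under 0.05. Stellate cell markers were lower for 8 of 11 members, like the Kupffer cell markers, with medians of -0.16 and -0.15. Endothelial markers were higher for 6 and lower for 4. Of 6 monocyte and dendritic cell markers 5 were lower and 1 higher.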

How the data were processed

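Liver total RNA was labelled with biotin and hybridised to 1-colour Affymetrix mouse arrays, per the labels' protocols. Values were deposited as 1 linear intensity per array for 45101 probe sets; how the authors summarised and scaled the probes is not given in the sources used here. Arrays compared, gene lists (46) and tests were chosen with earlier results of these data known. Intensities of all 24 arrays were quantile-normalized, floored at 8 and log2-transformed (floor 3.00, 5.44% of tested values), so fold changes of dim genes are understated. The lowest 40% of probe sets were left out, and each gene took its brightest probe set with 1 annotated gene (34958 had 1, 932 several and 9211 none, 64 controls included); 34754 were found in the RefSeq table of GRCm38.p6, with 0 symbols changed. "Other probe sets" are a gene's remaining ones among those kept. Arrays of 1 RNA were averaged. limma 3.58.1 in R 4.3.3 (lmFit, eBayes with trend, no covariate) was fitted over 11 RNA samples (4 control, 3 at 0.1%, 2 at 0.5%, 2 at 1.0%), with 7 residual degrees of freedom. In that fit control and 0.1% samples set only the spread. All 24 arrays entered the quantile normalization and the choice of probe sets. Tests were two-sided. An SE is from this fit. Adjusted p-values are Benjamini-Hochberg over 13118 genes, called under 0.05.

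Named genes were the 12 largest differences each way among genes with p under 0.05, no overlap and a mean log2 signal above 5, the 4 members of lowest p in each list, and a panel of metabolic, clock and acute phase genes; no gene was called. The 12 genes with the lowest p were added after their values were seen. Lists were described by counts and medians without a test. The fit was tested on simulated data. The number of RNA samples limits the precision. Replicate numbers 2 to 6 are shared by the doses, but same-numbered arrays did not deviate together (correlations from -0.0201 to 0.00218), so they were not paired. Alternatives are given in the closing section.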

Additional observations from a re-analysis of the deposited data

Results flagged for a closer look

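List levels were checked for a lone control RNA sample in 45 lists, of which chance marks about 1 in 20, and 4 had one. The control RNA of replicates 2 and 4 was high in the Kupffer cell markers (7.71, against 7.55 to 7.58 in the others), the monocyte and dendritic cell markers (5.65, against 5.05 to 5.12) and the single measured adipocyte marker (7.06, against 6.66 to 6.72). Control replicate 6 was high in the periportal list (10.63, against 10.51 to 10.53). These samples set the upper end of the control ranges of those lists and enter no difference between the doses.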

How the results depend on the processing

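No gene was called in 18 of 26 alternatives (limma, adjusted p). The count of called genes was 2 with a floor of 16, 14 with no filter on dim probe sets (863 genes with p under 0.05), 6 with only repeat hybridisations averaged (1306), and 1727 with the 11 arrays counted as separate samples (3775), which counts repeats of 1 RNA as replicates. Averaging only repeat hybridisations likewise counts arrays joined here as 1 RNA as separate samples. Adding the replicate number of the labels as a block to the 11 arrays gave 1110 called genes (3488 with p under 0.05); the numbers do not pair the samples. With no scaling 273 genes had p under 0.05, and with only the 4 RNA samples of the 2 doses in the fit 832, against 552; the cause was not tested. Leaving out each RNA sample in turn gave 0 to 3 called genes and 407 to 808 with p under 0.05: Psmb7 was called without the 4-array 0.5% RNA, Orm2, Lcn2 and Nr1d1 without the 2-array 0.5% RNA, and Il17rc without the 4-array 1.0% RNA. Psmb7 and Il17rc were seen only in these runs.

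Of 85 named genes, 10 changed sign under an alternative. Slc2a2 was at -0.000296 with no scaling, and Dok7 (-0.339) and Tmco4 (0.0312) turned when probe sets marked x or s were left out. Leaving out RNA samples in turn moved Dbp from -0.686 to 4.69, Nr1d2 from -0.207 to 1.87, Per3 from -0.0696 to 1.68, Per2 from -0.118 to 1.37, Fasn from -0.00795 to 0.574, G6pc from -0.676 to 0.35, Slc5a2 from -0.553 to 0.144 and Slc2a2 from -0.103 to 0.374. All other pairs of named gene and alternative, to a total of 2186 of 2198, kept their direction. Signals near the floor of 3.00, 2 RNA samples a dose and the unstated processing of the deposited values limit every difference.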

Other observations

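Of 9 negative acute phase genes, such as albumin, 6 were higher and 3 lower with a median of 0.02, and of 20 apolipoprotein genes 12 were higher and 8 lower with a median of 0.04, 0 in either list at p under 0.05. Complement and coagulation factors had 12 of 26 members higher, 1 at p under 0.05 and higher, with a median of -0.01. Growth hormone and STAT5 genes were lower for 10 of 14 members, with a median of -0.19 and 0 at p under 0.05; their mean level was 7.61 and 7.72 at 0.5% and 7.68 and 7.28 at 1.0%, so the 1-array 1.0% RNA was the low one.

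Interferon genes were higher for 18 of 30 members (median 0.04, 0 at p under 0.05) and cell cycle genes for 16 of 26 (median 0.11, 1 lower at p under 0.05). Glucuronosyl- and sulfotransferases, which conjugate phloretin-like phenols among other substrates, were higher for 10 of 14 members (median 0.10, 1 higher at p under 0.05). Periportal genes were higher for 9 of 12 (median 0.11, 1 higher at p under 0.05) and pericentral genes for 10 of 16 (median 0.03, 0). Glycogen genes had a median of -0.04. These medians compare with -0.03 for all genes.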
